A study of Mus musculus with 13 samples.

Results

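Cadherins and protocadherins are transmembrane adhesion proteins with repeated calcium-binding domains outside the cell. The family was taken here as every gene whose symbol is Cdh followed by a number, or begins with Pcdh, which gave 93 of the 53653 genes in the count table. They comprised 5 type I classical cadherins (Cdh1, Cdh2, Cdh3, Cdh4 and Cdh15), 13 type II classical cadherins, 5 other Cdh genes, 14 Pcdha, 22 Pcdhb and 22 Pcdhg genes of the clustered protocadherin locus, and 12 non-clustered protocadherins. The low-count filter kept 88 of them. The other 5, Cdh3, Cdh26, Pcdha4, Pcdhb1 and Pcdhga10, were not tested.

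The samples were GFP-positive cells sorted from mouse medulloblastomas, tumours of the cerebellum that arise from granule cell precursors when the Sonic Hedgehog pathway is active. All 13 libraries carry overexpressed SmoM2, an active form of the pathway's transducer Smoothened. The control primary group (replicates 3 to 7) held 5 cerebellar tumours of SmoM2 mice aged 6 to 16 weeks. The KO primary and KO metastasis groups (replicates 3, 4, 6 and 7 in each) held cerebellar tumours and spinal cord metastases of mice with SmoM2 and a knockout of Kmt2d, a histone methyltransferase of enhancers, aged 5 to 8 weeks. There was no metastasis group with intact Kmt2d, so for the metastases site and genotype can be compared with controls only together. The age ranges differ between knockout and control mice, so age and genotype cannot be told apart. The promoter that drives SmoM2 or Cre and the identity of the mice behind each library were not stated in the labels or files, and p-values therefore measure the spread between these libraries, which may be technical.

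Classical cadherins join like cells at adherens junctions and hold the actin cytoskeleton through catenins. Type I members bind mainly to themselves, while type II members also pair with relatives. Clustered protocadherins are chosen promoter by promoter in each neuron, through CTCF and cohesin, and give neurons a surface identity used in self-avoidance. The variable exons of the Pcdha and Pcdhg genes are spliced to constant exons that all genes of a cluster share. In the developing cerebellum, N-cadherin (Cdh2) holds granule cell precursors to one another as they divide and migrate.

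The libraries held 23.5 to 41.4 M counts. Genes of olfactory and vomeronasal receptors, which are not used by cerebellar cells, took 332 to 1679 CPM (counts scaled to a common library total) in control primary 3, KO primary 7, KO metastasis 6 and KO metastasis 7, called high-background libraries below. They took 81.3 CPM in KO primary 6 and 5.59 to 16.6 CPM in the other 8 libraries. Fits without the high-background libraries keep 4 control primary, 3 KO primary and 2 KO metastasis libraries. Xist had 324 to 510 CPM in controls 5, 6 and 7 and at most 1.02 CPM elsewhere, so the knockout libraries all lack Xist while the controls are mixed. Fits without the controls with Xist counts keep only control primary 3 and 4 as controls, and control primary 3 is a high-background library. The share of mitochondrially encoded counts was 2.06% in KO metastasis 3 and 0.633% to 0.876% in the others. Markers of granule cell precursors, the labelled cell type, were present in every library, and the summed level of 7 markers was 1563 to 2113 CPM in controls, 2279 to 2767 CPM in KO primary and 2388 to 3366 CPM in the metastases. Kmt2d counts over the whole gene spanned 78.1 to 175.0, 91.7 to 168 and 104.7 to 131 CPM in the same order (edgeR adjusted p = 0.956 for KO primary against control primary), but with no statement of which exons were deleted they check no genotype label.

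Per length, the highest members were 4 classical cadherins and the protocadherin Pcdhgc3. Levels were compared between genes as TMM-scaled CPM per kb of exon that no other annotated gene shares. Pcdha4 and Pcdhga10, with under 500 such bases, and Pcdha10 and Pcdha11, without a unique match in the annotation, had no such level. In Pcdhgc3 66.9% of exon bases are shared. Its level per kb is overstated if reads in them were counted, and how they were counted is not stated. Cdh20, a type II cadherin, led in control primary libraries with 47.4 ± 11.498 CPM per kb (SD, n = 5), followed by Pcdhgc3 with 47.0 ± 19.1, Cdh4 (R-cadherin) with 27.6 ± 7.59, Cdh2 (N-cadherin) with 23.99 ± 6.87 and Pcdh18 with 15.5 ± 4.57 CPM per kb. Cdh20 and Pcdhgc3, and Cdh4 and Cdh2, differed by less than their SD, while the steps from Pcdhgc3 to Cdh4 and from Cdh2 to Pcdh18 were larger than the SD of the lower gene. Cdh15 (M-cadherin), known as the cadherin of muscle satellite cells and also found in cerebellar granule cells, stood at 13.3 ± 2.88 CPM per kb in control primary tumours. In both knockout groups it stood beside Cdh20 at the top, at 77.5 ± 20.5 in KO primary and 76.7 ± 31.9 CPM per kb in KO metastasis libraries (n = 4 each), where Cdh20 had 80.7 ± 27.8 and 62.6 ± 19.8. Of all 93 members, 70 reached a mean of 1 CPM and 6 a mean of 50 CPM.

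**Figure D1:**
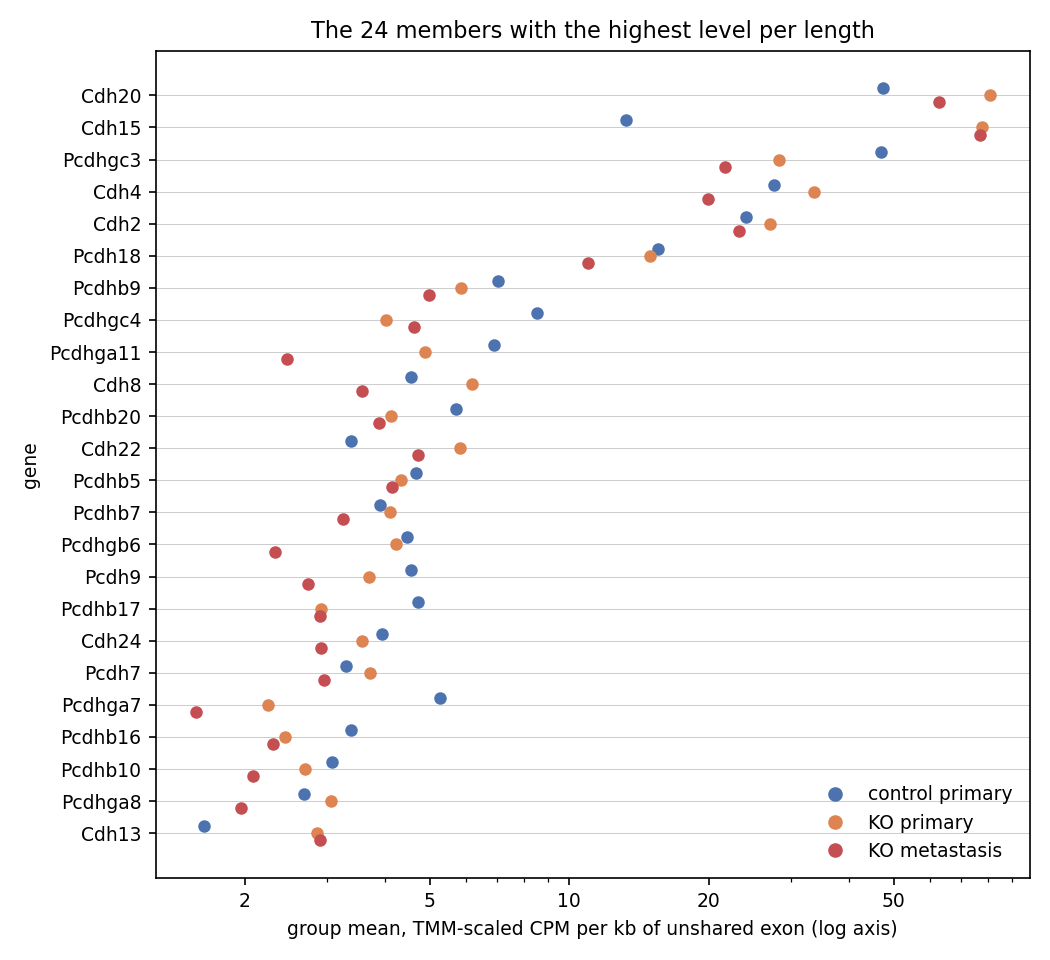
Group means of the 24 members with the highest level per length, in TMM-scaled CPM per kb of unshared exon on a log axis, one row per gene and one point per group (n = 5 control primary, 4 KO primary and 4 KO metastasis libraries). Cdh15 moves from 13.3 in control primary to 77.5 and 76.7 in the knockout groups, while the Cdh20, Cdh4 and Cdh2 means stay above 19 in all groups.

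The first comparison set KO primary against control primary tumours, which differ in Kmt2d genotype and also in age range. Of the 88 tested members 2 were higher in edgeR's quasi-likelihood test at an adjusted p below 0.05, Cdh15 and Cdh13, and none was lower. Over all 22265 genes tested, 1.15% were called higher and 1.78% lower, 2.93% in all. For the count of 0 lower members, 8 were lower and 6 higher at an unadjusted p below 0.05 (6.88% and 6.69% of all genes). DESeq2 called 1 lower (Pcdhgc4), where it called 988 of 45971 genes lower. With limma voom 8 were called lower, against 1631 of 22265 genes. The second comparison, KO metastasis against KO primary, addresses what differs between sites within the knockout. No member was called in either direction there, where 0.00449% of all genes were called. At an unadjusted p below 0.05 there were 3 members, all lower in metastases (Pcdhac2, Pcdh20 and Cdh4), against 1.94% of all genes higher and 1.29% lower, 3.23% in all, and DESeq2 and limma voom called none. The third comparison, KO metastasis against control primary, shares its controls with the first. It called the same 2 genes higher and Pcdh20 lower, where 1.06% of all genes were called higher and 2.02% lower, 3.08% in all.

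Range overlap was counted as well. In KO primary against control 4 members had all libraries higher (Cdh13, Cdh15, Cdh7 and Pcdhac2) and 1 lower (Pcdh20), against 3.57% and 3.85% of all genes. In KO metastasis against KO primary none was higher and 3 were lower (Cdh8, Pcdh20 and Pcdhac2), against 0.683% and 1.04%. In KO metastasis against control 2 were higher (Cdh13 and Cdh15) and 4 lower (Pcdh11x, Pcdh20, Pcdh8 and Pcdhb17, of which Pcdh11x, Pcdh8 and Pcdhb17 are named after their values were seen), against 2.81% and 4.01%.

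Cdh15 had the largest called change of the family. Its gene lies at chr8:122847966-122867397 on the plus strand (GRCm38, protein coding). Cdh15 in controls 3 to 7 stood at 36.0, 50.7, 36.1, 55.7 and 37.1 CPM. KO primary 3, 4, 6 and 7 had 320, 281, 164 and 243 CPM, and KO metastasis 3, 4, 6 and 7 had 192, 403, 181 and 221 CPM. The lowest knockout library, KO primary 6, was thus above the highest control, and primary and metastatic knockout libraries overlapped. Cdh15 rose 5.85-fold in KO primary (log2 change 2.55, SE 0.26, edgeR adjusted p = 2.60e-04, higher in 4 of 4 libraries) and 5.78-fold in KO metastasis libraries (2.53, SE 0.26, adjusted p = 3.08e-04, 4 of 4). Between the knockout groups the log2 difference was -0.02, with a 95% interval of -0.54 to 0.51 from its standard error. Both calls against the controls held in all 20 alternative fits, with log2 changes of 2.37 to 2.71 and 2.20 to 2.74.

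Muscle markers were read beside Cdh15, and summed to 44.0 to 117 CPM in controls, 126 to 149 CPM in KO primary and 143 to 188 CPM in the metastases. Of 6 markers 5 were tested, none was called in KO primary against control primary, and Myod1 alone was higher in KO metastasis libraries. Myod1, a transcription factor of the myogenic lineage, was at 83.1 ± 24.5 CPM in controls, 134 ± 9.45 in KO primary and 153 ± 20.8 CPM in the metastases (log2 change 0.88, edgeR adjusted p = 0.0329 for metastasis against control, and 0.69, adjusted p = 0.104 for KO primary). The contractile and structural markers stayed near 0: Acta1 reached at most 2.80 CPM, Ckm 1.45, Myh1 3.38, Myh4 7.76 and Des 1.37 CPM in any library. The highest values of Ckm, Myh1, Myh4 and Des were in control primary 3.

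The genes around Cdh15 were read in the same fit. Of 4 tested genes within 200 kb, 2 were called higher in both knockout groups. Acsf3 (chr8:122775486-122817880), an acyl-CoA synthetase of mitochondria that lies just upstream, rose from 41.8 ± 14.97 CPM to 275 ± 80.7 CPM in KO primary (log2 change 2.72, edgeR adjusted p = 4.88e-04) and 147 ± 54.2 CPM in the metastases (1.81, adjusted p = 0.00527). Cbfa2t3 (chr8:122625141-122699109), a transcriptional corepressor, rose from 342 ± 77.2 to 618 ± 42.7 and 679 ± 145 CPM (log2 changes 0.85 and 0.99, edgeR adjusted p = 0.0194 and 0.00819). Downstream, Ankrd11 and Spg7 had log2 changes of 0.12 and 0.14 in KO primary tumours without a call. Near Cdh13, on the same chromosome, 6 genes were tested, of which Necab2 was called in KO metastasis libraries (log2 change 1.72, edgeR adjusted p = 0.00128).

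The other type I cadherins were not called. Cdh2 was at 97.6, 225, 195, 218 and 233 CPM in controls 3 to 7, at 269, 234, 140 and 232 CPM in KO primary and at 132, 269, 168 and 181 CPM in the metastases. The groups overlapped throughout, and control primary 3 was the lowest library of all. The log2 changes were 0.18 (95% interval -0.35 to 0.70) for KO primary and -0.04 (-0.57 to 0.48) for KO metastasis against control, so a doubling lies outside both intervals. Cdh4 was at 111, 186, 250, 220 and 235 CPM in controls 3 to 7, at 304, 204, 176 and 291 CPM in KO primary and at 80.7, 120, 160 and 216 CPM in the metastases. Its metastases were lower than the KO primaries on average with overlap (log2 change -0.76, SE 0.30, edgeR adjusted p = 1.00, unadjusted p = 0.026). Without the high-background libraries, where 2 metastases (80.7 and 120 CPM) remain, Cdh4 was lower in metastases than in controls (log2 change -1.13, edgeR adjusted p = 0.0248). In the fit of all libraries that change was -0.47 (adjusted p = 0.542). No other alternative fit called Cdh4.

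**Figure D2:**
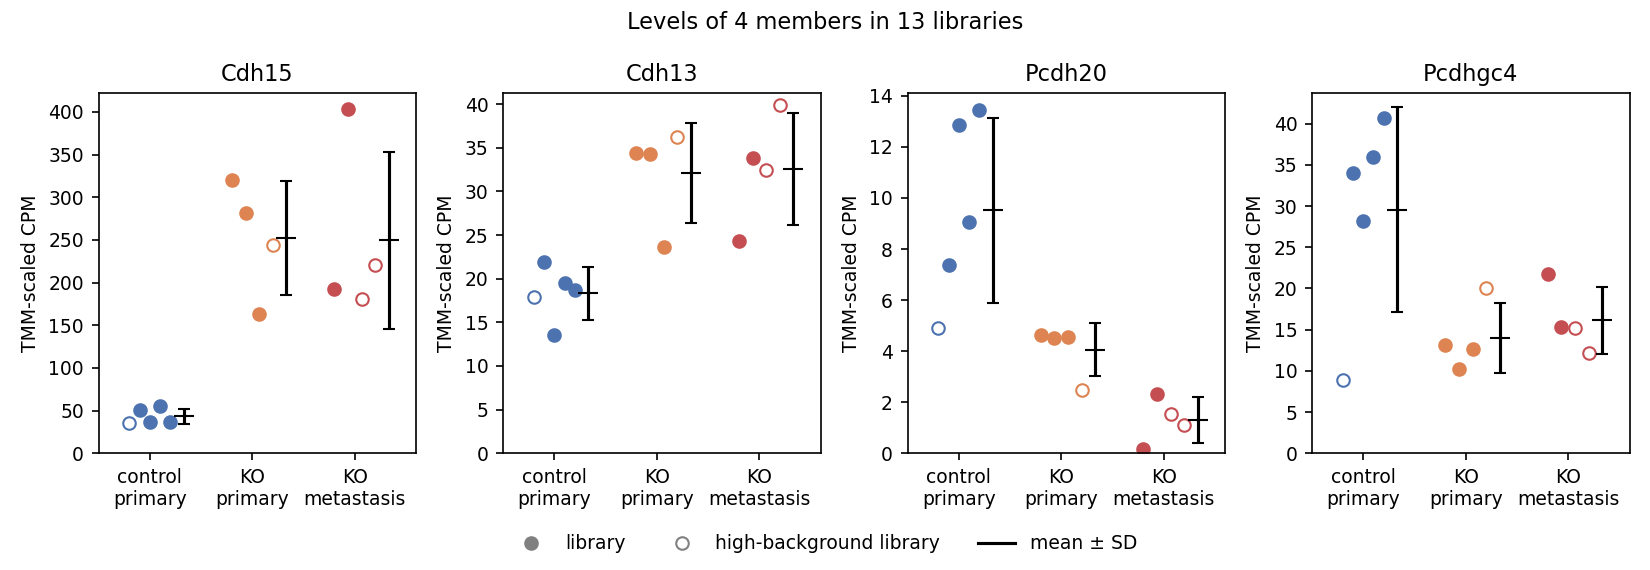
TMM-scaled CPM of Cdh15, Cdh13, Pcdh20 and Pcdhgc4 in each of the 13 libraries, with the mean and SD of each group beside its points and open points for the 4 high-background libraries. Knockout libraries lie above all controls for Cdh15 and Cdh13, and metastases lie at or below 2.33 CPM for Pcdh20, where the lowest control has 4.91 CPM.

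Cdh13 (T-cadherin), which lacks a transmembrane segment and is held in the membrane by a lipid anchor, was the other gene called higher. It spans chr8:118283733-119324921 on the plus strand. Controls 3 to 7 had 17.9, 21.9, 13.6, 19.5 and 18.7 CPM. KO primary 3, 4, 6 and 7 had 34.4, 34.3, 23.6 and 36.3 CPM, and KO metastasis 3, 4, 6 and 7 had 24.3, 33.8, 32.4 and 39.9 CPM. All knockout libraries were above all controls, with KO primary 6 and KO metastasis 3 closest to them. Cdh13 rose 1.75-fold in KO primary (log2 change 0.81, SE 0.18, edgeR adjusted p = 0.0296) and 1.78-fold in KO metastasis libraries (0.83, SE 0.18, adjusted p = 0.0253).

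The calls of Cdh13 rested on most libraries being present. In KO primary against control the edgeR adjusted p was 0.0644, 0.0587 and 0.0707 without control primary 5, 6 and 7, and 0.122, 0.118 and 0.0597 without KO primary 3, 4 and 7. In KO metastasis against control it was 0.0520 without control primary 7 and 0.0721, 0.0580 and 0.0909 without KO metastasis 4, 6 and 7. With the presence of Xist counts as a covariate the adjusted p was 0.245 and 0.236. Without the high-background libraries it was 0.0710 and 0.134. The log2 change stayed between 0.67 and 0.95 in the 40 alternative fits of the 2 comparisons, of which 21 called the gene.

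Among the type II cadherins, 13 of 13 were tested and none was called in the edgeR fit of all libraries. There were 8 positive and 5 negative log2 changes in KO primary against control (median 0.43, against -0.05 over all tested genes). In KO metastasis against control 5 were positive and 8 negative (median -0.36, against -0.04 over all tested genes). Cdh20 led this group in every library, at 141, 162, 254, 221 and 173 CPM in controls 3 to 7, at 453, 375, 207 and 259 CPM in KO primary and at 256, 360, 213 and 175 CPM in the metastases. KO primary 3 and 4 were above every control, while KO primary 6 was within their range. Its log2 change in KO primary was 0.77 (SE 0.26, edgeR adjusted p = 0.155). It was called higher with receptor CPM as a covariate (0.78, adjusted p = 0.0295) and in limma voom (0.67, adjusted p = 0.0442), and in no other alternative. Cdh7 had 5.82, 4.12, 3.38, 3.28 and 1.99 CPM in controls 3 to 7 and 24.2, 9.74, 5.98 and 6.20 CPM in KO primary libraries. These did not overlap, but KO primary 3 was far above the rest and the gene was not called (log2 change 1.63, SE 0.53, edgeR adjusted p = 0.133). It was called without the high-background libraries (2.07, edgeR adjusted p = 0.0176), with the replicate block (1.43, adjusted p = 0.0459) and in DESeq2 (1.60, adjusted p = 0.0395), and in no other alternative. Cdh12 was called higher by limma voom alone, in KO primary (3.06, limma voom adjusted p = 0.0321) and KO metastasis against control (3.24, adjusted p = 0.0334). In the edgeR fit of all libraries its log2 changes were 1.09 and 0.96 (adjusted p = 0.791 and 0.817). Cdh7 and Cdh12 are named after their values were seen.

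The remaining named type II cadherins overlapped between all groups, apart from Cdh8 between the knockout groups. Cdh8, a neuronal cadherin, was at 34.3 to 71.8 CPM in KO primary and 21.7 to 34.0 CPM in the metastases, against 17.3 to 71.7 CPM in controls (log2 change -0.79 between the knockout groups, edgeR adjusted p = 1.00). Cdh22 and Cdh24 spanned 5.33 to 33.8 and 6.90 to 21.7 CPM over the 13 libraries. Cdh11, a cadherin of mesenchymal cells, was at 6.92 to 20.2 CPM in controls, 7.15 to 10.1 CPM in KO primary and 4.49 to 13.9 CPM in the metastases. Cdh5 (VE-cadherin), which defines endothelial junctions, was at 0.735 ± 0.715, 1.14 ± 1.04 and 0.672 ± 0.497 CPM in the 3 groups, and the 8 endothelial markers summed to 2.2 to 27.5 CPM. Cdh19, of the Schwann cell lineage, was at most 1.955 CPM in controls and 0.596 CPM in KO primary libraries (log2 change -2.63, edgeR adjusted p = 0.605). It was called lower in KO primary only with receptor CPM as a covariate (-5.19, edgeR adjusted p = 0.0480).

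Several members were read mainly from the high-background libraries. Cdh1 (E-cadherin), the cadherin of epithelia, had 3.00, 1.71, 1.62 and 1.70 CPM in control primary 3, KO primary 7, KO metastasis 6 and KO metastasis 7, and 0 to 0.188 CPM in the other 9 libraries. A count of 0 allows up to 0.0724 to 0.127 CPM at these depths (3 counts of the library total, counting error only). The same 4 libraries were also the highest for Cdh3, Cdh16 (kidney), Cdh17 (intestine), Cdh23 (inner ear tip links), Cdh26, Pcdhb1 and Pcdh12, 8 members in all. Of the 88 tested members 5 had this pattern, against 11.7% of all tested genes. Cdh17 and Cdh23 reached 7.15 and 6.27 CPM in control primary 3 and were at most 0.114 and 0.688 CPM outside the 4 libraries. Whether the background accounts for these counts was not tested. In all, 13 members stayed below 1 CPM in every one of the 9 other libraries.

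**Figure D3:**
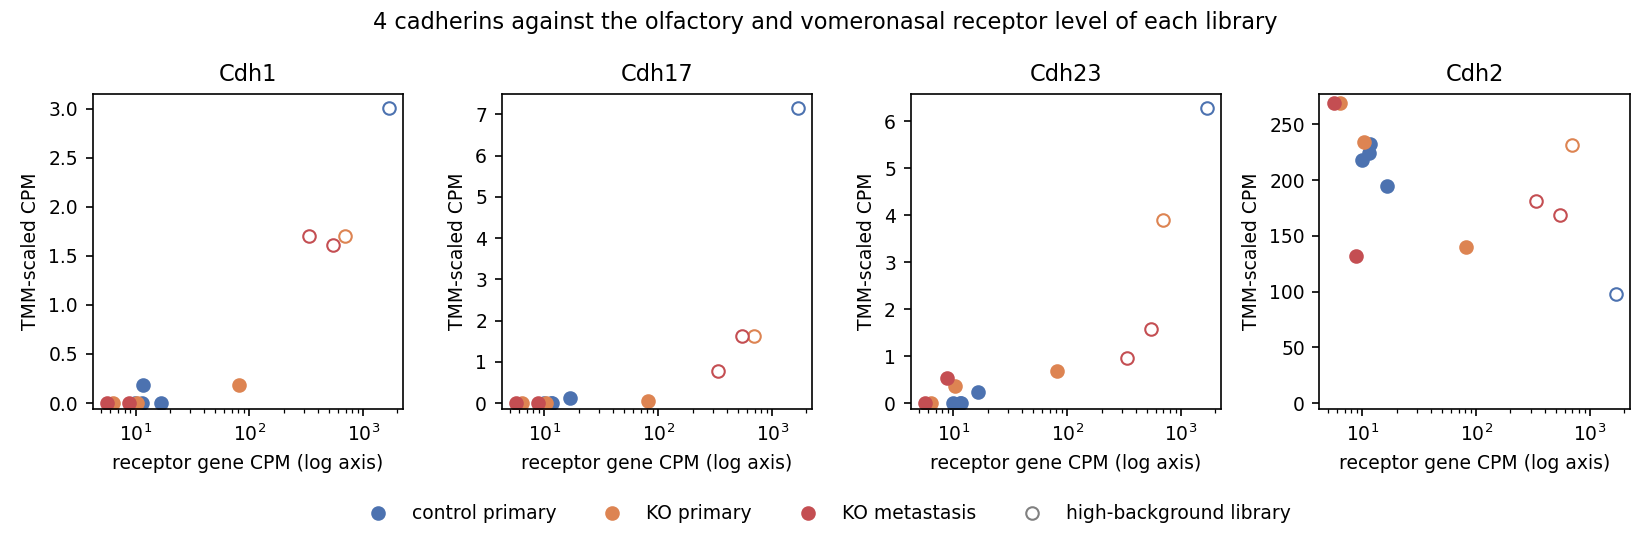
TMM-scaled CPM of Cdh1, Cdh17, Cdh23 and Cdh2 in the 13 libraries against the CPM of olfactory and vomeronasal receptor genes on a log axis, with open points for the 4 libraries above 100 receptor CPM. Cdh1, Cdh17 and Cdh23 are near 0 in the 9 libraries on the left and highest in control primary 3, where Cdh2 has its lowest value of 97.6 CPM.

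Pcdh20, a non-clustered protocadherin of the delta type, was the only member called lower. The gene lies at chr14:88464743-88471396 on the minus strand. The window of 250 bases before its start (RefSeq, GRCm38.p6, chr14:88471397-88471646, minus strand, no annotated exon of the gene) is shown because Pcdh20 is the called member whose upstream sequence could be read. Capitals mark CG dinucleotides.
Pcdh20: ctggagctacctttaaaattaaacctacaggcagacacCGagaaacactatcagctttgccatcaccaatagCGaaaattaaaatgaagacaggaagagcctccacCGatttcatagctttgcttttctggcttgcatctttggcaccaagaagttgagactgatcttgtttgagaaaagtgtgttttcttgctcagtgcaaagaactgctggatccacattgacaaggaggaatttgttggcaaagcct
The window holds 3 CG dinucleotides and 42.4% G and C, where the median of 32851 such mouse windows is 6 and 52.4%. It holds no CANNTG, the E-box letters on both strands, which occur in 66.2% of the windows, and no GACCACCCA on either strand, a Gli-type motif found in 0.225%. These are letter matches only.

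In controls 3 to 7 Pcdh20 was at 4.91, 7.38, 12.8, 9.05 and 13.4 CPM. KO primary 3, 4, 6 and 7 had 4.64, 4.52, 4.55 and 2.49 CPM, and KO metastasis 3, 4, 6 and 7 had 0.180, 2.33, 1.55 and 1.12 CPM. The 3 groups did not overlap, with controls highest and metastases lowest, though control primary 3 was only just above the knockout primaries. Pcdh20 fell 7.30-fold in KO metastasis against control primary (log2 change -2.87, SE 0.55, edgeR adjusted p = 0.0115, lower in 4 of 4 libraries). The log2 changes of -1.23 in KO primary against control (SE 0.51, adjusted p = 0.275) and -1.63 in KO metastasis against KO primary (SE 0.54, adjusted p = 1.00, unadjusted p = 0.00929) did not pass. Of 20 alternatives 1, limma voom, called Pcdh20 lower in KO primary against control (-1.16, limma voom adjusted p = 0.00928). The call in KO metastasis against control held without any one of the 9 libraries compared, with adjusted p of 0.00524 to 0.0410. It was lost with the presence of Xist counts as a covariate (log2 change -2.24, adjusted p = 0.0963) and without the 3 controls with Xist counts (-2.19, adjusted p = 0.326). The latter fit has only control primary 3 and 4 as controls. The replicate block and the same libraries fitted unpaired also lost it (adjusted p = 0.0537 and 0.0521). Markers of other cells were read as well. The 6 oligodendrocyte markers summed to 121 to 310 CPM in controls, 50.6 to 80.1 CPM in KO primary and 159 to 1763 CPM in the metastases. The 6 microglia markers summed to 6.67 to 60.5, 2.04 to 13.6 and 9.97 to 164 CPM. Between the knockout groups 1 oligodendrocyte marker and no microglia marker was called. All 6 of each had positive log2 changes there, while all 6 oligodendrocyte precursor and all 4 tested ependymal and choroid markers had negative ones. Their part in the level of Pcdh20 was not tested.

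Of the other non-clustered protocadherins, 11 were tested and none was called in the edgeR fit of all libraries. Pcdh1, named after its values were seen, had a log2 change of -2.04 in KO metastasis against control (edgeR adjusted p = 0.417). It was called lower there without the high-background libraries (-5.91, edgeR adjusted p = 0.00945), a fit with 2 metastases. With receptor CPM as a covariate it was called as well (-3.00, edgeR adjusted p = 0.0396). Over all 12, 9 had a negative log2 change in each comparison, with medians of -0.39, -0.30 and -0.62 in the order given above. Over all tested genes 54.4%, 50.4% and 53.4% were negative, with medians of -0.05, -0.004 and -0.04. Pcdh18, the highest of them, was at 43.0, 100.96, 90.5, 103 and 79.2 CPM in controls 3 to 7, at 93.8, 114, 50.04 and 63.2 CPM in KO primary and at 24.4, 111, 49.97 and 49.4 CPM in the metastases. KO metastasis 3 was the lowest and the groups overlapped. Only limma voom called Pcdh18, lower in KO metastasis against control (-0.86, limma voom adjusted p = 0.0391). Pcdh9 and Pcdh7, delta protocadherins of brain circuits, spanned 8.66 to 70.0 and 11.1 to 47.5 CPM over all libraries with overlap. Pcdh19, an X-linked protocadherin that binds together with N-cadherin, had 6.69, 6.13, 12.2, 7.24 and 5.81 CPM in controls 3 to 7, 26.0, 11.8, 12.3 and 7.61 CPM in KO primary and 18.2, 17.1, 12.4 and 9.18 CPM in the metastases. Most knockout libraries were above most controls, and the log2 changes of 0.92 and 0.90 were not called (edgeR adjusted p = 0.21 and 0.226). Only limma voom called Pcdh19, higher in KO primary against control (0.92, limma voom adjusted p = 0.0370). Pcdh10, another delta protocadherin, was at 1.74 to 6.08 CPM. Pcdh15, the partner of Cdh23 in tip links, was at 1.39 to 18.1 CPM and highest in control primary 3.

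**Figure D4:**
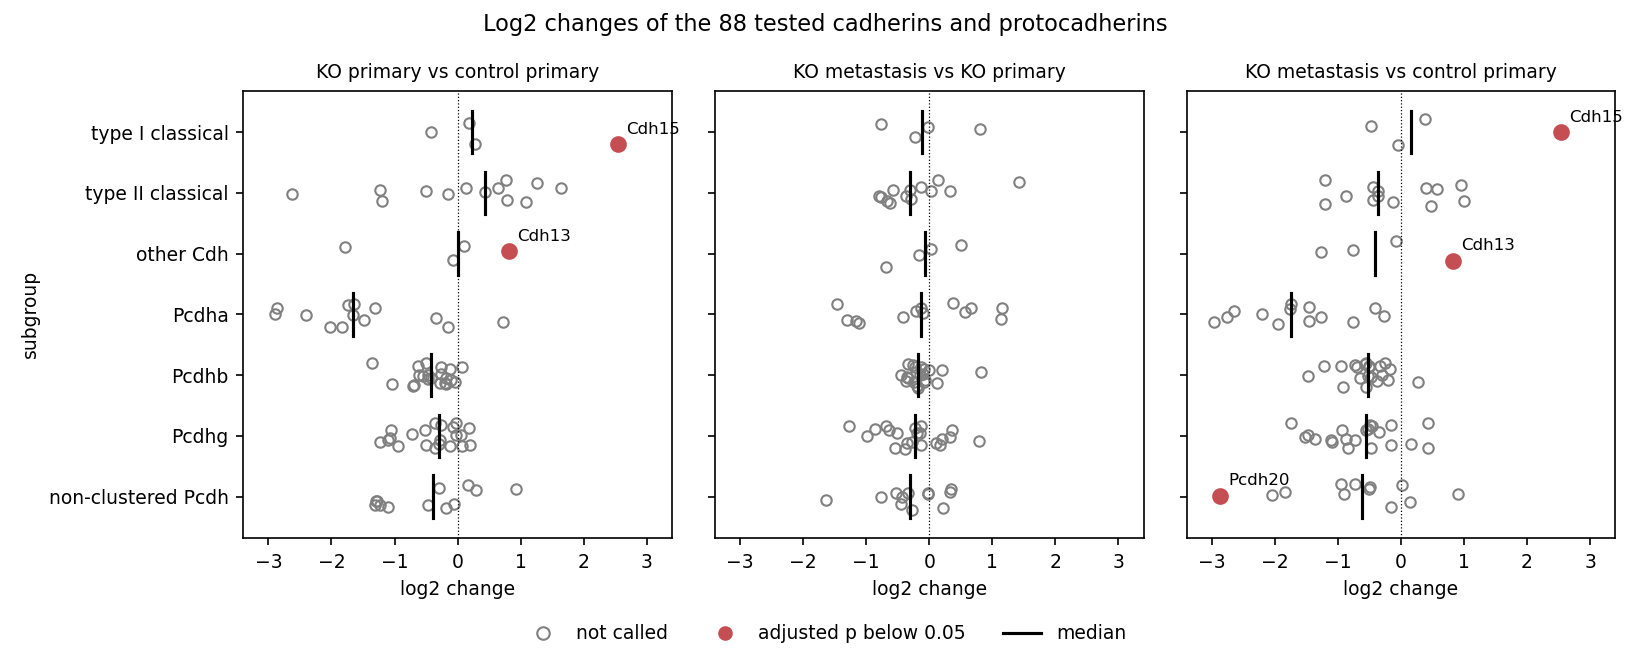
Log2 changes of the 88 tested members by subgroup in the 3 comparisons, each point a gene, the bar the subgroup's median, and filled points the genes at an edgeR adjusted p below 0.05. The called genes are Cdh15 and Cdh13 to the right and Pcdh20 to the left, and most clustered protocadherins lie left of 0 in the comparisons with control primary tumours.

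Most clustered protocadherins had lower means in both knockout groups, but no gene was called in the edgeR fit of all libraries. Of the 58 members 55 were tested. In KO primary against control 49 of them had a negative log2 change (median -0.47), where 54.4% of all tested genes did and the median of all was -0.05. In KO metastasis against control 51 had a negative change (median -0.64, against 53.4% and -0.04 over all genes). At an unadjusted p below 0.05, 7 and 11 were lower, against 6.88% and 7.57% of all genes, and 1 and none were higher. The 2 comparisons share their controls. Between metastases and primaries of the knockout 41 of 55 were negative (median -0.19, against 50.4% and -0.004 over all genes). These genes cannot be taken as independent. The genes within Pcdha and within Pcdhg share constant exons, and no label or file says how reads in shared exons were counted. Pcdhga10 has no exon base of its own in the annotation and had 0 counts in every library, so no shared read was counted for it.

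The summed levels show the spread behind these counts. Pcdhb, whose genes are annotated with 1 exon each, partly shared in Pcdhb12 (63.5% of its bases), Pcdhb21 (9.67%) and Pcdhb22 (6.88%), summed to 147, 285, 178, 203 and 210 CPM in controls 3 to 7, 200, 168, 101 and 169 CPM in KO primary and 137, 168, 128 and 135 CPM in the metastases. Pcdhg summed to 102, 260, 196, 256 and 240 CPM in controls 3 to 7, 171, 117, 99.0 and 167 CPM in KO primary and 66.8, 152, 123 and 113 CPM in the metastases. Pcdha was the lowest cluster, with 35.8 ± 14.4, 20.1 ± 6.81 and 15.4 ± 5.06 CPM in the 3 groups. In each cluster control primary 3 was the lowest control and within the range of the knockout libraries. Control primary 4, 6 and 7 were above every knockout library in Pcdhb, Pcdhg and Pcdha.

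**Figure D5:**
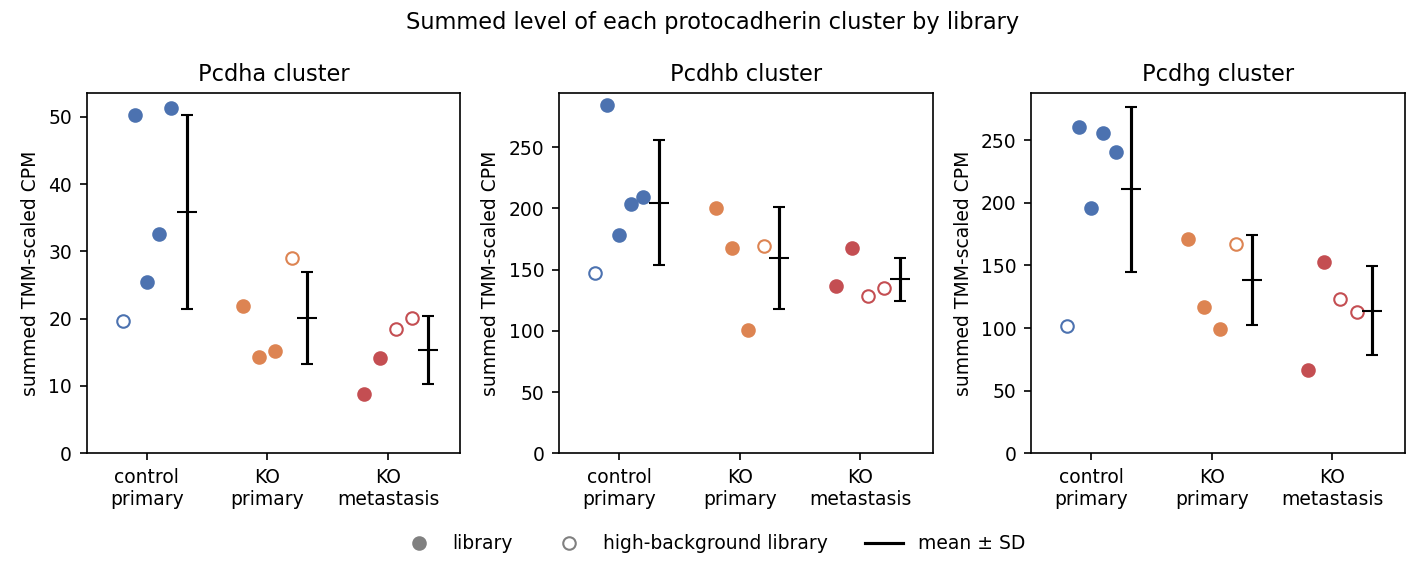
Summed TMM-scaled CPM of the Pcdha, Pcdhb and Pcdhg clusters in each of the 13 libraries, with group mean and SD, open points marking the 4 high-background libraries. Control primary 3, an open point, lies among the knockout libraries, at 102 CPM for Pcdhg where the other controls reach 196 to 260 CPM.

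Within the clusters, the C-type genes at the end of Pcdha and Pcdhg, which neurons use without the choice of promoter, included the leading gene of Pcdhg in every library and of Pcdha in 7 of 13. Pcdhgc3 led Pcdhg in 12 of 13 libraries, with 31.8, 111, 68.8, 112 and 104 CPM in controls 3 to 7, 69.9, 44.6, 34.4 and 57.4 CPM in KO primary and 13.5, 56.9, 43.7 and 44.0 CPM in the metastases. Control primary 4, 6 and 7 were the highest 3 libraries (log2 changes -0.73 and -1.11 against control, edgeR adjusted p = 0.497 and 0.206). In KO metastasis libraries Pcdhgc3 was called lower without control primary 3 (-1.32, adjusted p = 0.0416), with the replicate block (-1.21, adjusted p = 0.0114) and in limma voom (-1.23, adjusted p = 0.00742), which also called it in KO primary (-1.09, adjusted p = 0.00691). The other alternatives called Pcdhgc3 in neither comparison. Pcdhgc4 had 8.86, 34.1, 28.2, 36.0 and 40.7 CPM in controls 3 to 7, 13.2, 10.2, 12.6 and 20.04 CPM in KO primary and 21.8, 15.3, 15.2 and 12.2 CPM in the metastases. All knockout libraries were below all controls other than control primary 3, and the gene was not called (log2 changes -1.08 and -0.88, edgeR adjusted p = 0.146 and 0.26). Without control primary 3 it was called in both comparisons (edgeR log2 change -1.31, adjusted p = 0.00556, and -1.10, adjusted p = 0.0136), as it was without all 4 high-background libraries (-1.52, adjusted p = 0.00184, and -0.90, adjusted p = 0.0486). The last of these fits had 2 metastasis libraries. Pcdhgc4 was also called by limma voom in both comparisons and by DESeq2 in KO primary, but by no other alternative.

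Pcdhac2, the last gene of the Pcdha cluster, had positive log2 changes in primary tumours. It had 5.51, 5.95, 5.66, 6.15 and 8.75 CPM in controls 3 to 7, 13.4, 10.1, 9.20 and 9.43 CPM in KO primary and 3.02, 5.60, 7.20 and 3.54 CPM in the metastases. KO primary libraries were above all others, but the edgeR fit of all libraries called no comparison (log2 change 0.72, edgeR adjusted p = 0.208 against control, and -1.12, adjusted p = 1.00, between metastases and KO primaries). Only limma voom called Pcdhac2, higher in KO primary against control (0.67, limma voom adjusted p = 0.0451). Alternate Pcdha genes, which are chosen by promoter, included the lowest log2 changes of the clusters and differed from library to library. Pcdha10 had 0, 14.2, 11.4, 7.24 and 6.97 CPM in controls 3 to 7 and 1.46, 0, 0.555 and 2.28 CPM in KO primary libraries (log2 change -2.89, edgeR adjusted p = 0.268). Control primary 3 again went with the knockout libraries, and without it the gene was called (-3.21, edgeR adjusted p = 0.0404), as was Pcdhga4 (-1.37, adjusted p = 0.0333). Pcdha8 had 11.97 CPM in control primary 4 and 0.912 CPM in control primary 5, and Pcdha9 10.8 CPM in control primary 7 and 0.799 CPM in control primary 3. Pcdha1, Pcdha2, Pcdha3 and Pcdha5 stayed at or below 3.01 CPM everywhere and Pcdha12 at or below 4.79 CPM.

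Members of Pcdhb and the remaining Pcdhg genes were not called in the edgeR fit of all libraries. Of those named in this paragraph, Pcdhb9, Pcdhga11 and Pcdhgb6 were called lower in KO metastasis against control by limma voom alone. Their log2 changes there were -0.82, -2.04 and -1.50 (limma voom adjusted p = 0.0342, 0.0338 and 0.0180). Pcdhb9, the highest Pcdhb gene per length, had 9.51, 29.3, 19.004, 25.4 and 24.3 CPM in controls 3 to 7, 21.6, 22.3, 12.007 and 15.7 CPM in KO primary and 18.2, 15.7, 14.1 and 12.9 CPM in the metastases, with overlap. Pcdhb20, Pcdhb5 and Pcdhb7 spanned 7.43 to 29.3, 7.51 to 32.0 and 7.59 to 20.7 CPM over the 13 libraries. Pcdhga11 and Pcdhgb6 spanned 0.826 to 17.8 and 1.36 to 15.9 CPM, both lowest in KO metastasis 3. The leading Pcdhb gene took only 10.7% to 13.8% of the cluster's sum in any library, while the leading Pcdhg gene took 31.3% to 43.9%.

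Markers of differentiated granule neurons, cells that use clustered protocadherins, differed between control and knockout libraries, which also differ in age range. The summed level of 8 markers was 1455 to 2584 CPM in controls, 684 to 849 CPM in KO primary and 774 to 1437 CPM in the metastases, 4 of the 8 were called lower in KO primary and 3 in KO metastasis against control, and no marker was at 0 in every library of a group. Its part in the lower protocadherin levels was not tested. In sorted bulk samples, fewer cells of a type and less RNA per cell cannot be told apart.

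The genes that work with cadherins were counted from fixed lists. Of 19 tested catenins and junction partners 1 was lower and none higher in each knockout group against control. That gene was Jup (plakoglobin), a catenin of desmosomes and adherens junctions, with 30.8, 77.8, 42.3, 55.7 and 95.6 CPM in controls 3 to 7, 22.8, 15.9, 17.0 and 26.6 CPM in KO primary and 19.1, 28.0, 22.9 and 26.0 CPM in the metastases. All knockout libraries were below all controls (log2 changes -1.56 and -1.33, edgeR adjusted p = 0.0111 and 0.0250). Its call in KO primary was lost without KO primary 4 or 6 (adjusted p = 0.0631 and 0.0562), and that in KO metastasis in 9 of 20 alternatives (adjusted p of 0.0513 without control primary 6 to 0.102 without KO metastasis 3; also without control primary 4 or 7 and KO metastasis 4, 6 or 7, and 0.160 with the Xist covariate and 0.319 without the controls with Xist counts). The last 2 settings also ended the KO primary call (adjusted p = 0.0829 and 0.159). Ctnnb1 (beta-catenin) was at 381 ± 97.9, 524 ± 89.8 and 414 ± 146 CPM in the 3 groups, without a call.

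Of 20 tested members of the wider cadherin superfamily, Fat3 was higher and Clstn3 lower in KO primary, and Clstn3 and Fat2 were lower in KO metastasis libraries against control. Clstn3 (calsyntenin 3), a synaptic adhesion protein, was at 21.6 ± 9.02, 7.63 ± 2.23 and 6.11 ± 1.75 CPM (log2 changes -1.50 and -1.82, edgeR adjusted p = 0.0243 and 0.00903). Its KO primary call was lost without control primary 4 or 7 (0.0657 and 0.0603) or KO primary 3, 4 or 6 (0.0811, 0.118 and 0.104), and in 8 of 20 alternatives in all, up to 0.223 without the controls with Xist counts. That setting alone ended its KO metastasis call (0.129). Fat3, an atypical cadherin that shapes dendrites, was at 15.9 ± 1.64 in control and 26.3 ± 4.08 CPM in KO primary libraries (log2 change 0.73, edgeR adjusted p = 0.0197, and 0.0527, 0.0507 and 0.0705 without control primary 4, control primary 7 and KO primary 4). The call of Fat3 was lost in 6 of 20 alternatives, up to an adjusted p of 0.247 without the controls with Xist counts. Fat2, an atypical cadherin of granule cells, was at 11.6 ± 6.35 in control and 2.38 ± 1.44 CPM in the metastases (-2.29, edgeR adjusted p = 0.0345). That call was lost without control primary 4, 5 or 7 (0.0994, 0.0529 and 0.0782) or KO metastasis 4, 6 or 7 (0.0912, 0.109 and 0.0681). In all it was lost in 11 of 20 alternatives, with an adjusted p of at most 0.181, the value without the controls with Xist counts.

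Among 11 genes of cadherin cleavage, Mmp24, a membrane metalloprotease that cuts N-cadherin, was lower in both groups. It had 87.0, 280, 166, 214 and 229 CPM in controls 3 to 7, 72.9, 42.7, 35.9 and 76.7 CPM in KO primary and 26.8, 52.5, 35.2 and 68.9 CPM in the metastases (log2 changes -1.77 and -2.09, edgeR adjusted p = 0.0175 and 0.00687). No knockout library reached the lowest control. Without KO primary 4 or 6 the first of these had an adjusted p of 0.0888 and 0.0790. It was lost in 5 of 20 alternatives, up to 0.238 without the controls with Xist counts, the setting that alone ended the KO metastasis call (0.146). Among 15 regulators of clustered protocadherin promoters, Rest, a repressor of neuronal genes, was higher in both groups. Rest had 5.59, 6.61, 17.8, 5.34 and 5.49 CPM in controls 3 to 7, 36.4, 47.9, 41.0 and 20.4 CPM in KO primary and 20.6, 42.3, 27.8 and 17.7 CPM in the metastases, which overlap control primary 5 at one library (log2 changes 2.16 and 1.73, edgeR adjusted p = 0.0090 and 0.0290). Its KO metastasis call was lost without control primary 4, 6 or 7 (0.0895, 0.0795 and 0.0807) or KO metastasis 3, 4 or 6 (0.0589, 0.104 and 0.0714), with the Xist covariate (0.0880) and without the controls with Xist counts (0.0816), while the KO primary call held in all 20 alternatives. Ctcf was at 170 ± 10.7, 214 ± 20.5 and 241 ± 55.6 CPM without a call. None of 15 tested protocadherin effectors and none of 4 tested factors of epithelial-mesenchymal transition was called against the controls, and no gene of these 6 lists was called between metastases and primaries of the knockout.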

How the data were processed

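Sorted cells of 13 libraries were measured by RNA-seq. The deposited file holds whole-number counts per gene, made by the authors, and the submitters' processing notes name mm10 as build, with DESeq2, HTSeq 0.6.1 and STAR 2.4 as tools of unstated role. Annotation and strand setting: not given in the sources used here. Low genes were removed by filterByExpr of edgeR (at least 10 counts, 15 in total). TMM scaling preceded a joint fit of all libraries with edgeR 4.0.16 (quasi-likelihood, R 4.3.3), with Benjamini-Hochberg adjustment over all tested genes and a threshold of 0.05. The standard error was taken as the log2 change divided by the square root of the F statistic. Levels are TMM-scaled CPM. DESeq2 1.42.0 and limma 3.58.1 (voom with quality weights), a replicate block, other filters and scalings, covariates and left-out libraries were alternatives. Gene positions are from GENCODE M21 (GRCm38). Named genes were the called members, the 4 members of each subgroup with the highest level per kb of unshared exon, the 4 uncalled members per comparison with the largest log2 change, 9 members fixed by name (Cdh1, Cdh2, Cdh4, Cdh5, Cdh11, Cdh15, Pcdh10, Pcdh15 and Pcdh19) and the called genes of the partner lists. Cdh7, Cdh12, Pcdh1, Pcdhga4 and the neighbouring genes are named outside this rule, after their values were seen. The members and lists were chosen with earlier results of these data known. The fit was tested on simulated data.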

Additional observations from a re-analysis of the deposited data

Results flagged for a closer look

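In groups of 4 or 5 libraries, a value was singled out where its gap to the nearest other library, divided by the group's range, passed Dixon's 95% limit. Of 135 values by gene and group, 18 in 16 genes did so, and chance flags about 1 in 20; 12 of the 18 were in high-background libraries. Control primary 3 stood apart for Cdh2 (97.6 CPM, others 195 to 233), Cdh1 (3.00 CPM, others at most 0.188), Cdh17 (7.15 CPM, others at most 0.114), Cdh23 (6.27 CPM, others at most 0.228) and Cdh16 (1.03 CPM, others at most 0.0889). KO primary 7 stood apart for Pcdh20 (2.49 CPM, others 4.52 to 4.64), Cdh24 (19.4 CPM, others 9.32 to 10.7), Cdh1 (1.71 CPM), Cdh17 (1.63 CPM), Cdh19 (0.596 CPM) and Pcdha1 (0.244 CPM, others 0). Among the rest, KO primary 6 had 23.6 CPM of Cdh13 (others 34.3 to 36.3) and KO metastasis 6 had 26.3 CPM of Fat3 (others 19.4 to 19.9). Control primary 7 had 8.75 CPM of Pcdhac2 (others 5.51 to 6.15) and 4.79 CPM of Pcdha12 (others 0.805 to 1.54). Control primary 6 had 16.4 CPM of Pcdhb7 (others 12.4 to 13.5). Control primary 5 had 12.2 CPM of Pcdh19 (others 5.81 to 7.24) and 17.8 CPM of Rest (others 5.34 to 6.61).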

How the results depend on the processing

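No called change reversed, and Cdh15 was called in every alternative of both comparisons with controls. In KO primary against control the 2 members called higher became 1 with the presence of Xist counts as a covariate, 1 without the 3 controls with Xist counts, 1 to 2 with a library left out, 3 in DESeq2 and with receptor CPM as a covariate, and 6 in limma voom. The 0 called lower became 1 with receptor CPM as a covariate, 4 without the high-background libraries, 0 to 3 with a library left out (3 without control primary 3), 1 in DESeq2 and 8 in limma voom. In KO metastasis against control the 2 higher became 1 with the Xist covariate, without the high-background libraries and without the Xist controls, 1 to 2 with a library left out and 3 in limma voom. The 1 lower became 2 with the receptor covariate, 0 with the Xist covariate, 4 without the high-background libraries, 0 without the Xist controls, 1 to 3 with a library left out (3 without control primary 3), 2 in DESeq2 and 12 in limma voom. The cause was not tested. Over all 22265 genes tested, 257 were called higher and 396 lower in KO primary. These became 677 and 988 of 45971 in DESeq2, and 1636 and 1631 of 22265 in limma voom. They became 548 and 879 of 20214 without the high-background libraries, and 485 and 630 of 22265 with the receptor covariate. Without control primary 3 they were 392 and 640 of 19995, and without the Xist controls 60 and 78 of 28131. For KO metastasis, 235 and 450 became 688 and 951, 2318 and 1504, 581 and 693, 437 and 680, 428 and 771, and 44 and 56 in the same order. The numbers of genes tested were the same in both comparisons. The count of clustered genes with a negative change was 39 to 53 over the alternatives in KO primary and 47 to 52 in KO metastasis libraries. Leaving out the Xist controls, and refitting the libraries of the block unpaired, were chosen after seeing the data. The former keeps only control primary 3 and 4 as controls.

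The replicate numbers shared by the groups were not taken as pairs: deviations of same-numbered KO metastasis and KO primary libraries correlated at 0.36, 0.49, -0.005 and 0.68, and not every library correlated best with its own number. The replicate block called, in KO metastasis against control, 1 member higher (Cdh15) and 1 lower, Pcdhgc3 (log2 change -1.21, edgeR adjusted p = 0.0114), and lost Cdh13 (0.0967) and Pcdh20 (0.0537). The same libraries unpaired called 1 higher and 0 lower. In KO primary against control the block called 2 higher, Cdh15 and Cdh7 (adjusted p = 0.0459), and lost Cdh13 (0.131).

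Fewer than 6 libraries a group limit precision, and a count of 0 allows up to 0.0724 to 0.127 CPM. Reads carry no molecular identifiers in the sources used here.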
